A study of Mus musculus with 6 samples.

Results

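The 10 genes described here mark macrophages and other leukocytes: *Csf1r*, *Ptprc*, *Spi1*, *Tyrobp*, *Fcer1g*, *Cx3cr1*, *Mrc1*, *C1qb*, *Laptm5* and *Coro1a*. They were chosen by name out of the 23284 genes of the table. For 9 of them the symbol stood in the gene column, and *Spi1* was found under its older symbol *Sfpi1*, a synonym given by RefSeq. The question was whether their transcripts differed between heart ventricles of *Tbx5ua*-knockdown (KD) and wild-type (WT) embryos.

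RNA-seq was performed on heart ventricles of C57BL/6 embryos at embryonic day 9.5, with 3 WT and 3 KD (genotype *Tbx5ua* -/-) embryos. All embryos of both groups were tetraploid chimeras, made by injecting ES cells into tetraploid host embryos so that the embryo proper derives from the ES cells. In the KD cells, made from ES cells of C57BL/6 J origin, polyadenylation signals of the bovine growth hormone gene were inserted into both alleles of the lncRNA gene *Tbx5ua* to stop its transcription early. The selection cassettes had been removed with Cre. The ES cells were clonal and the study used 2 KD lines. Which of them gave the sequenced embryos is not given in the sources used here, and the level of *Tbx5ua* itself is not analysed here.

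Macrophages of the early embryo arise in the yolk sac from blood progenitors of the extraembryonic mesoderm and reach the tissues before the liver makes blood. The transcription factor PU.1, the product of *Spi1*, sets up this lineage, and the receptor CSF1R carries its survival signal. Mature macrophages engulf dead cells, sense immune complexes through receptors that need small adaptor proteins, and make the first component of complement.

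The table gave 1 FPKM value (fragments per kilobase of transcript, scaled to the number of mapped fragments) per group, which stands for all 3 of its embryos. No value for a single embryo was at hand, so no SD or interval can be given. The test columns that the authors deposited were not used, no test is given, and every difference below is a difference between 2 group values with no replicate check. Read depth is unknown. Differences are given as log2((KD + 0.1)/(WT + 0.1)), a scale that understates the change of genes near or below 0.1 FPKM, and a gene is said to pass 1.5-fold when this value is at least 0.58 in size. The FPKM values of all genes summed to 859452 in WT and 877889 in KD. *Actc1*, the cardiac actin gene, was listed at 0 in both groups, so a 0 in this table is not proof of absence. The label of the tissue was checked with 11 cardiomyocyte genes, which were all above 4 FPKM in both groups and of which 0 passed 1.5-fold.

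All 10 genes were weakly represented in the ventricles. The highest, *Laptm5*, had 2.95 FPKM for WT and 3.10 for KD, and the lowest, *Ptprc*, had 0.00676 FPKM in the WT group and 0.0115 in the KD group. Of the 17383 genes above 0 in either group, the median mean level was 3.49 FPKM, and the 10 genes lay between percentile 3.51 and percentile 47.9. Only *Laptm5*, *Fcer1g* and *Coro1a* had a mean of the group values of at least 1 FPKM. The 10 genes together held 9.77 FPKM in WT against 10.3 in KD, and the 3 highest made up 65.5% of this sum in WT and 76.9% in KD. In RNA from whole ventricles, fewer cells of a type and less RNA per cell cannot be told apart.

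**Figure D1:**
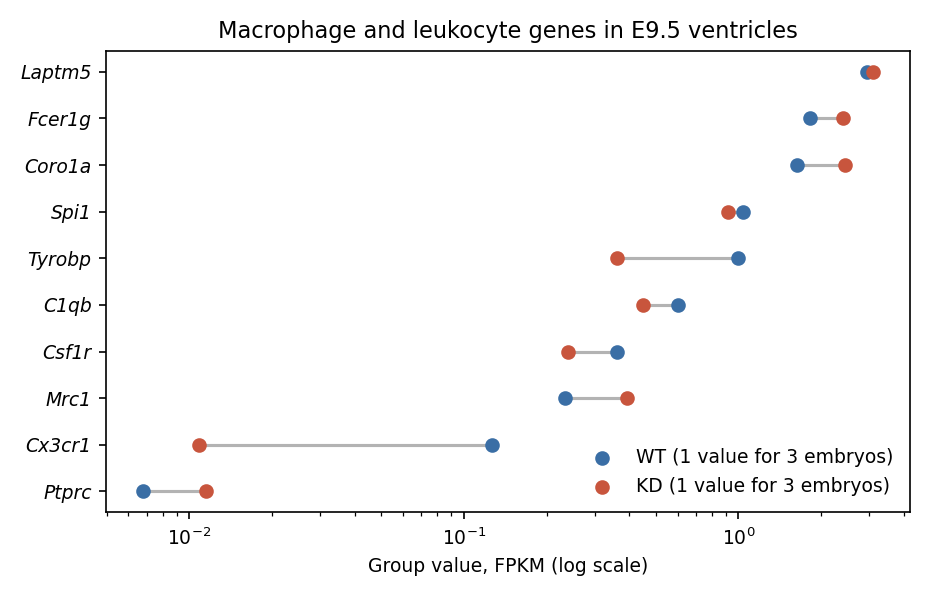
Group values of the 10 genes in FPKM on a log axis, ordered by the WT value; blue points are WT and red points KD, each 1 value for 3 embryos with no error. *Tyrobp* and *Cx3cr1* have the widest gaps toward lower KD values, while *Laptm5*, the highest, has nearly equal values.

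The genes did not move in 1 direction. The group value was higher in KD for 5 genes (*Mrc1*, *Coro1a*, *Fcer1g*, *Laptm5* and *Ptprc*) and lower for 5 (*Tyrobp*, *Cx3cr1*, *Csf1r*, *C1qb* and *Spi1*). Their median log2 difference was -0.05, against 0.00413 for the 11366 genes with a mean of at least 1 FPKM, of which 50.7% were higher in KD. The differences of *Laptm5* (0.07), *Ptprc* (0.06) and *Spi1* (-0.17) were the smallest.

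In size, 2 of the 10 genes passed 1.5-fold, *Tyrobp* and *Cx3cr1*, both lower in KD. Among the genes with a mean of at least 1 FPKM, 6.48% passed 1.5-fold in either direction, 2.68% passed it downward and 3.79% upward, but neither *Tyrobp* nor *Cx3cr1* reached that level. Differences of this size were common among genes as weak as these. Of the genes with a mean from 0.5 to 1 FPKM, where *Spi1*, *Tyrobp* and *C1qb* lie, 34.6% passed 1.5-fold. From 0.2 to 0.5 FPKM, where *Csf1r* and *Mrc1* lie, the share was 43.4%, and above 0 to 0.2 FPKM, where *Cx3cr1* and *Ptprc* lie, it was 31.6%. From 2 to 5 FPKM, where *Fcer1g*, *Coro1a* and *Laptm5* lie, it was 9.42%, and 0 of these 3 genes passed. Downward alone, the direction of both *Tyrobp* and *Cx3cr1*, the share was 14.6% from 0.5 to 1 FPKM, 17.8% from 0.2 to 0.5 FPKM and 13.5% above 0 to 0.2 FPKM. With 2 genes past this size, no excess or lack against these shares can be told.

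**Figure D2:**
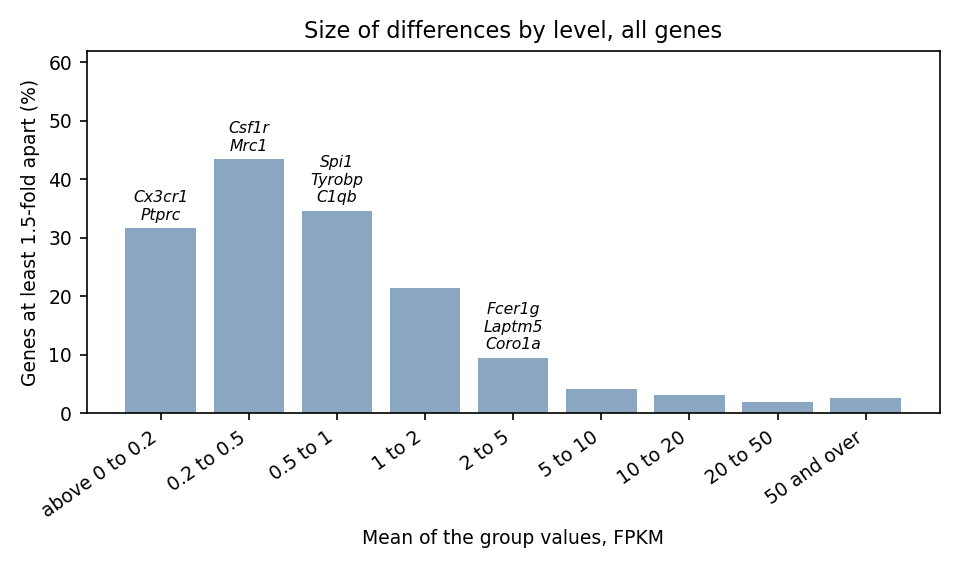
Share of all genes whose group values are at least 1.5-fold apart in either direction, on the log2(FPKM + 0.1) scale, by the mean of the group values in FPKM; the names above the bars are the genes described here that lie in that band. The share is 43.4% from 0.2 to 0.5 FPKM and 9.42% from 2 to 5 FPKM.

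**Figure D3:**
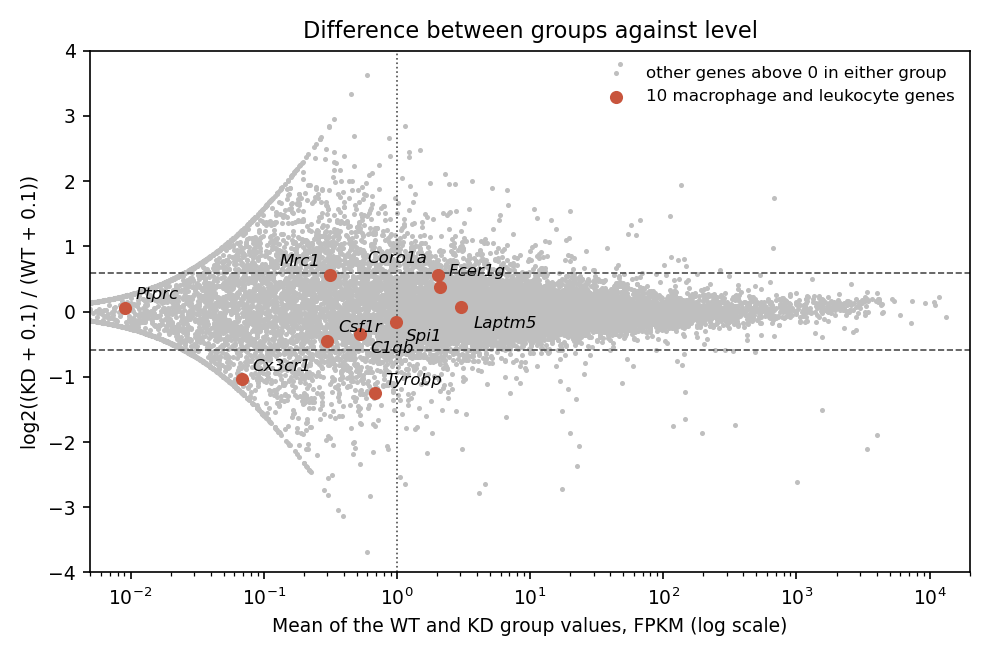
Log2 difference of each gene against the mean of its group values in FPKM on a log axis; grey points are other genes, red points the 10 genes, dashed lines mark 1.5-fold and the dotted line 1 FPKM. *Tyrobp* and *Cx3cr1* lie below the lower dashed line in a region where many grey points do too; 377 of the 17373 other genes lie outside the axes.

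*Spi1* encodes PU.1, an ETS-family transcription factor needed for macrophages and B cells. It lies on chromosome 2 from 91096797 to 91115756 (build mm10, plus strand). Its group value was 1.04 FPKM for WT and 0.917 for KD, a log2 difference of -0.17. It was the fourth highest of the 10 genes in both groups. The values are close, and 34.6% of genes at this level differed by more than 1.5-fold.

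PU.1 binds DNA at a GGAA core, and many macrophage genes carry its sites near their start. RefSeq promoter windows (GRCm38.p6, 250 bases before to 50 bases after each start) were at hand for 7 of the 10 genes. The letters GGAAGT or their reverse complement ACTTCC were found in the windows of *Ptprc*, *Mrc1*, *C1qb* and *Laptm5*, 4 of 7, against 26.5% of 27025 genes with a window. The longer GAGGAAGT, or ACTTCCTC, was in 0 of the 7 and in 3.69% of all, and it contains the shorter motif. A match is not a binding site, and no binding was measured. The matches upstream of the start are shown on the strand of each gene, 5′ to 3′, with the motif in capitals. They are shown because PU.1 is the product of one of the 10 genes.
*Ptprc*, chr1:138175400-138175429, minus strand: tacttgaattaaGGAAGTaagaagccattg
*Ptprc*, chr1:138175346-138175375, minus strand: tttttttttttaACTTCCtgcaaagaggac
*Mrc1*, chr2:14229191-14229220, plus strand: tcacttctccccACTTCCtgcgttttctcc
*C1qb*, chr4:136886236-136886265, minus strand: acaggacctgaaACTTCCtgagggcagcag
*Laptm5*, chr4:130913241-130913270, plus strand: tgagggcaaggcGGAAGTgaggcaggcagc

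The 4 genes with the motif differed from each other in level and in direction. *Mrc1*, *Ptprc* and *Laptm5* were higher in KD and *C1qb* was lower, none of them past 1.5-fold. The genes without it, *Cx3cr1*, *Fcer1g* and *Coro1a*, had differences from -1.03 to 0.56.

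Of 10 other transcription factor genes of myeloid cells 8 had a higher group value in KD, against 50.7% of all genes with a mean of at least 1 FPKM. Of the 10, 3 passed 1.5-fold upward and 1 downward, and 5 had a mean below 1 FPKM, where 31.6% to 43.4% of all genes passed in either direction. Of the 5 at or above 1 FPKM, 2 passed upward, against 3.79% of all such genes. *Cebpb*, a leucine zipper factor of macrophages and of many other cells, had 0.387 FPKM in the WT group and 2.62 in the KD group, a log2 difference of 2.48. *Klf4* had 1.27 FPKM for WT and 0.80 for KD (-0.61). The highest of the list were *Fli1*, also an endothelial factor, with 9.22 FPKM in the WT group and 11.2 in the KD group, and *Irf5*, with 5.90 FPKM in WT against 7.02 in KD.

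The receptors stood among the lowest of the 10 genes. *Csf1r* encodes the receptor for the cytokines CSF1 and IL-34 and lies on chromosome 18 from 61105572 to 61131139 on the plus strand. It had 0.363 FPKM for WT and 0.240 for KD, a log2 difference of -0.45 that did not pass 1.5-fold. Without a pseudocount the WT value was 1.51-fold that of KD.

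*Cx3cr1* encodes the fractalkine receptor of embryonic macrophages and microglia and lies on chromosome 9 from 120048693 to 120068282 on the minus strand. Its values were 0.127 FPKM in the WT group and 0.0109 in the KD group, a log2 difference of -1.03. The ratio without a pseudocount was 11.7, and with 1 FPKM added to both values the log2 difference was -0.16, so the size of this difference is set by the pseudocount.

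The 3 ligands of these receptors, made mostly by other cells, were measured too. *Csf1* had 1.13 FPKM in WT against 1.59 in KD, *Cx3cl1* had 2.54 FPKM for WT and 2.40 for KD, and *Il34* had 0.00821 FPKM in the WT group and 0.0831 in the KD group. Of these 3 genes only *Il34* passed 1.5-fold, at values below 0.1 FPKM. The ligand list also held *Csf2*, listed at 0 in both groups, and *Csf3*, at 0 in WT and 0.0167 FPKM in KD, which bind other receptors.

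*Ptprc* encodes CD45, the phosphatase on the surface of leukocytes, and lies on chromosome 1 from 138062861 to 138175305. It was close to 0 in both groups, with 0.00676 FPKM in WT against 0.0115 in KD. These were the lowest WT value and the second lowest KD value of the 10 genes. The log2 difference of 0.06 and the ratio of 1.70 without a pseudocount describe the same pair of values.

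The 2 signalling adaptors had opposite signs. Both TYROBP (DAP12) and the Fc receptor gamma chain encoded by *Fcer1g* are small membrane proteins that pair with receptors lacking a signalling tail and recruit the kinase SYK. *Tyrobp* (chromosome 7, 30413788 to 30417579) had 0.998 FPKM for WT and 0.362 for KD, a log2 difference of -1.25 and on this scale the largest difference of the 10 genes (a ratio of 2.75 without a pseudocount). *Fcer1g* (chromosome 1, 171229572 to 171234349) had 1.82 FPKM in the WT group and 2.40 in the KD group, a log2 difference of 0.38 that did not pass 1.5-fold. *Tyrobp* went from place 5 of the 10 in level in WT to place 7 in KD, while *Fcer1g* went from place 2 to place 3. With 1 FPKM added in place of 0.1 the difference of *Tyrobp* was -0.55, short of 1.5-fold.

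Of 14 genes that act with these adaptors or downstream of immune receptors, 5 had a mean of at least 1 FPKM. All 5 were lower in KD without passing 1.5-fold. Of the 11366 genes with such a mean, 5598 were lower in KD. *Lyn*, a Src-family kinase, had 12.5 FPKM in WT against 9.22 in KD, and it shares its locus in the table with *6330407A03Rik*. *Plcg2*, a phospholipase, had 3.46 FPKM for WT and 2.29 for KD (log2 difference -0.57). *Ptpn6*, the phosphatase SHP-1, had 2.87 FPKM in the WT group and 2.32 in the KD group. *Syk* had 2.53 FPKM in WT against 2.19 in KD. Over all 14 genes 5 were higher and 8 lower. Past 1.5-fold were 2 upward and 1 downward, all 3 at a mean below 1 FPKM. In that range 31.6% to 43.4% of all genes above 0 passed in either direction.

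*C1qb* encodes the B chain of C1q, the recognition part of complement, which macrophages make from 3 chains. It lies on chromosome 4 from 136880145 to 136886177 and had 0.601 FPKM for WT and 0.450 for KD, a log2 difference of -0.35. The other two chains were weaker than *C1qb* on this length-scaled measure. *C1qa* had 0.0361 FPKM in WT and *C1qc* had 0.0744 FPKM in WT, and both were listed at 0 in KD. All 3 chains were lower in KD, each at a level where differences past 1.5-fold were common.

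*Mrc1* encodes the mannose receptor CD206, which takes up glycoproteins, and lies on chromosome 2 from 14229414 to 14332023. It had 0.233 FPKM in the WT group and 0.393 in the KD group, a log2 difference of 0.57 that did not pass 1.5-fold. Without a pseudocount the KD value was 1.69-fold that of WT, past this size. It shares its locus with *Mir511* in the table. In the list of 9 genes of resident and yolk sac macrophages, 5 were higher in KD, 0 were lower and 4 (*Timd4*, *Cd163*, *Cbr2* and *Ms4a7*) were listed at 0 in both groups. Of all genes with a mean of at least 1 FPKM, 50.7% were higher in KD. Of the 3 genes of the list with such a mean 2 passed 1.5-fold upward, against 3.79% of all such genes. *Folr2* also passed, in the band above 0 to 0.2 FPKM where 31.6% of all genes passed in either direction. The highest genes of that list are also known from other cells. *Lyve1*, a hyaluronan receptor that lymphatic and embryonic endothelium shares, had 1.73 FPKM in WT against 2.92 in KD (0.72). *Stab1*, also endothelial and overlapping *Nt5dc2* in the table, had 5.30 FPKM for WT and 5.42 for KD. *Pf4*, the platelet factor 4 gene, had 38.5 FPKM in the WT group and 86.9 in the KD group (1.17). It is also counted in the megakaryocyte and platelet list.

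*Laptm5* encodes a lysosomal membrane protein of blood cells that lowers surface receptor levels, and *Coro1a* encodes coronin 1A, a regulator of actin in leukocytes. *Laptm5*, on chromosome 4 from 130913334 to 130936148, had nearly the same value in both groups, 2.95 and 3.10 FPKM (log2 difference 0.07), and was the highest of the 10 genes in each. *Coro1a* (chromosome 7, 126699774 to 126704754) had 1.63 FPKM in WT against 2.44 in KD (0.56), just short of 1.5-fold. Its locus overlaps *Bola2* on the opposite strand in the GENCODE annotation, and Smart-Seq2 libraries do not mark strand.

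Of 20 further genes of leukocytes in general, 13 were higher and 6 lower in KD, with 6 past 1.5-fold upward and 3 downward. Of these genes 16 had a mean below 1 FPKM, 1 of them listed at 0 in both groups, and above 0 in that range 31.6% to 43.4% of all genes passed in either direction. Of the 4 with a mean of at least 1 FPKM, *Lcp1* and *Plek* passed upward and 0 downward, against 3.79% and 2.68% of all such genes. *Arhgdib*, a cytoskeletal regulator that endothelium also expresses, stood far above the rest with 79.9 FPKM for WT and 82.0 for KD. *Lcp1*, the actin bundler L-plastin, had 7.76 FPKM in the WT group and 11.9 in the KD group (0.61), and it shares its locus with *Zc3h13* and other genes. *Plek*, the platelet and leukocyte protein pleckstrin, had 1.11 FPKM in WT against 1.83 in KD (0.67). *Hcls1* had 1.71 FPKM for WT and 1.73 for KD.

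Several markers that define macrophages were at or near 0, and others were weak. *Itgam* (CD11b) and *Msr1* were listed at 0 in both groups, *Adgre1* (F4/80, listed as *Emr1*) was at 0 in WT and 0.00673 FPKM in KD, and *Aif1* was at 0.0204 FPKM in the WT group and 0.0194 in the KD group. *Cd68*, a lysosomal marker of macrophages named after its values were seen, had 0.70 FPKM in WT against 0.195 in KD (-1.44), and *Cd14* had 0.367 FPKM in WT against 0.297 in KD. Of 15 macrophage genes, 4 were higher and 9 lower in KD, with 1 past 1.5-fold upward and 3 downward and a median log2 difference of -0.04. All that passed had a mean below 0.5 FPKM, where 31.6% to 43.4% of all genes above 0 passed in either direction. The gene past upward was *C3ar1*, with 0.253 FPKM in WT against 0.471 in KD (0.69). *Lyz2*, the lysozyme gene, held most of the summed level, with 20.3 of 23.8 FPKM in WT and 16.5 of 19.2 FPKM in KD. *Lgals3* had 1.60 FPKM in WT against 1.56 in KD. *Fcgr3*, an Fc receptor that needs the *Fcer1g* product, had 0.209 FPKM in WT and was listed at 0 in KD. Among 8 microglial genes, 7 were higher in KD, against 50.7% of all genes with a mean of at least 1 FPKM. Of the 8, *Olfml3*, which non-immune cells also express, had 8.18 FPKM in the WT group and 10.6 in the KD group. On these values the 10 genes are described as genes of macrophages and leukocytes, not as a measure of such cells.

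Megakaryocytes and platelets are also known to express *Fcer1g*, *Laptm5*, *Coro1a* and *Plek*. All 10 genes of their list were higher in KD and 8 passed 1.5-fold, with a median log2 difference of 1.14. Of the 8 with a mean of at least 1 FPKM 6 passed upward, against 3.79% of all such genes. Their summed level was 50.1 FPKM in WT against 112.5 in KD, of which *Pf4* was the larger part, and none was at 0. The part of these cells in the values of *Fcer1g*, *Laptm5* and *Coro1a* was not tested. Epicardial genes were higher in KD in 7 of 7, with 47.1 FPKM summed in WT and 96.0 FPKM in KD and a median log2 difference of 0.92. Of the 6 epicardial genes with a mean of at least 1 FPKM, 5 passed 1.5-fold upward, against the same 3.79%. The erythroid list differed little, with 11456 FPKM summed in WT and 11535 FPKM in KD and 0 of 8 genes past 1.5-fold. Endothelial and endocardial genes (6 of 9 higher) and blood progenitor genes (7 of 9 higher) had medians of 0.10 and 0.08. Of all genes with a mean of at least 1 FPKM, 50.7% were higher in KD. The former list had 0 genes past 1.5-fold. The latter had 1, *Myb*, lower in KD (-0.63), with 0.0976 FPKM in WT against 0.0278 in KD. Above 0 to 0.2 FPKM, where *Myb* lies, 31.6% of all genes passed in either direction. With 1 FPKM added to both values its log2 difference was -0.09.

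**Figure D4:**
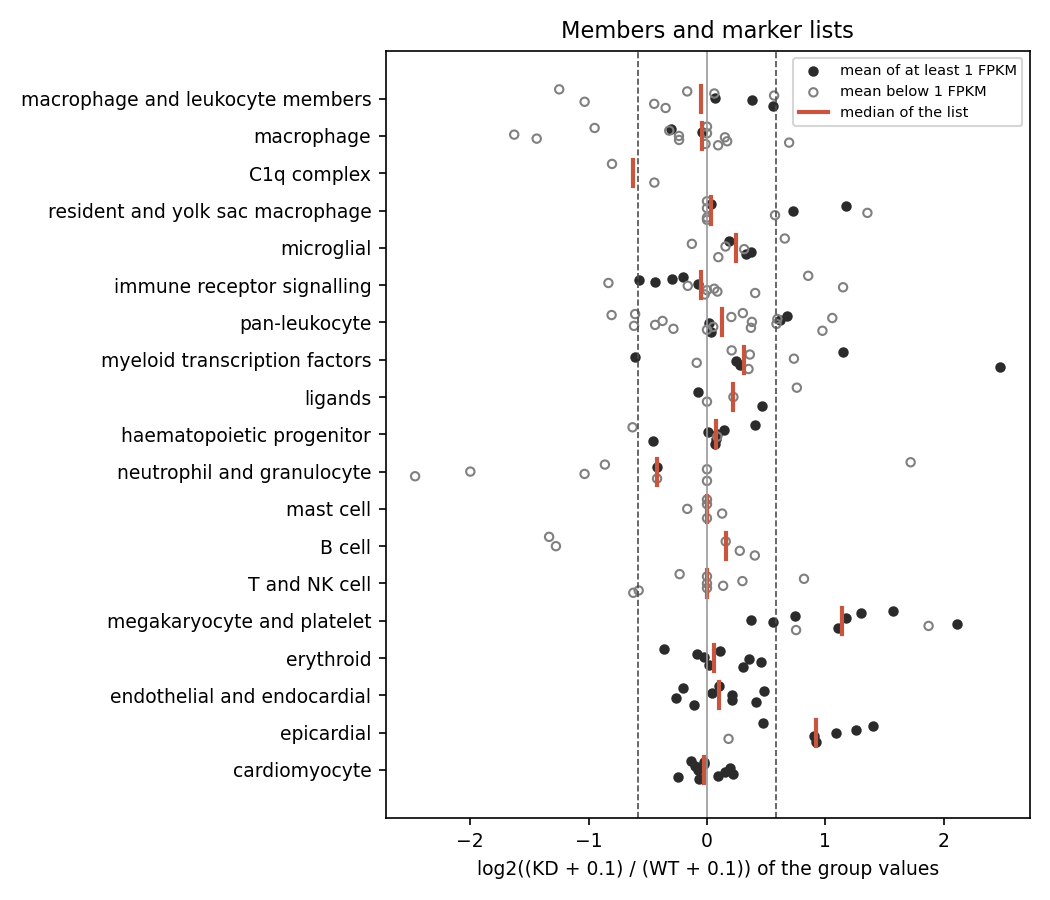
Log2 difference of each gene of the 10-gene set (top) and of 18 marker lists; filled points have a mean of at least 1 FPKM, open points a lower mean, red bars are the list medians and dashed lines mark 1.5-fold. The 10 genes straddle 0, while all megakaryocyte and platelet genes lie to the right of 0 with a median of 1.14.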

How the data were processed

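Ventricular RNA (10 ng per library) was made into Smart-Seq2 libraries with 12 cycles of preamplification and 9 of enrichment PCR. The authors deposited 1 Cuffdiff table with an FPKM value per gene and group, in which KD is named KO. TopHat, Bowtie2, Cuffdiff and build mm10 are named in the submitters' processing notes, and no versions are given in the sources used here. The columns of the authors' own comparison (log2 fold change, test statistic, p-value, q-value and significance) were not used. There were 0 columns of single embryos, so no test could be made from single values.

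Log2 differences with a pseudocount of 0.1 FPKM, counts past 1.5-fold and medians were computed, beside all genes with a mean of at least 1 FPKM and beside bands of level; the bands below 1 FPKM were added after seeing the data. The members and the 18 other lists were chosen with earlier results of these data known. *Hba-a1* was not matched. Some genes of the lists are counted but not reported here by name. Named genes were the 10 members and, of other lists, those with the highest level or the largest differences at a mean of at least 1 FPKM, and defining markers near 0; other genes were named after their values were seen. Starts have 1 added, which matched 9652 GENCODE M21 transcript starts against 944 without. Scripts were tested on simulated data. Python 3.11.15, NumPy 2.4.6, pandas 2.3.3 and Matplotlib 3.10.9 were used.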

Additional observations from a re-analysis of the deposited data

How the results depend on the processing

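No paired analysis was possible because single embryos have no values in the table, and for the same reason no replicate was left out. The number of the 10 genes past 1.5-fold went from 2 to 0 with a pseudocount of 1 FPKM, to 5 (2 higher and 3 lower) with none and to 7 (3 higher and 4 lower) when a log2 difference of 0.32 was enough, and it was 0 among the 3 genes with a mean of at least 1 FPKM, all 3 of which were higher in KD. The median log2 difference of -0.0523 was -0.0421 with a pseudocount of 1 FPKM, -0.0563 with none, -0.0564 less the median of all genes, -0.17 without *Mrc1*, the 1 member overlapping another gene in the table (overlaps seen only in GENCODE, as for *Coro1a*, *Csf1r* and *Ptprc*, were kept), 0.38 over the 3 genes with a mean of at least 1 FPKM and 0.0623 over the 9 genes matched by exact symbol, an alternative chosen after seeing the data. Its sign therefore depends on the genes kept. No member had a mean of at least 5 FPKM. The share of all genes past 1.5-fold was 16.2% with no filter on level, 2.97% at a mean of at least 5 FPKM and 3.41% with a pseudocount of 1 FPKM, against 6.48%. Each of the 10 genes kept its sign under the other pseudocounts and with the median of all genes subtracted. The unknown depth and the lack of single-embryo values limit every statement on genes below 1 FPKM.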

Other observations

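Genes of other leukocytes were weak as well. Of 9 neutrophil and granulocyte genes, 6 had a lower group value in KD, 1 a higher one and 2 (*Ngp* and *Camp*) were listed at 0 in both groups. Their summed level was 3.57 FPKM for WT and 1.74 for KD. *Mpo*, the myeloperoxidase gene of granule-forming myeloid cells, had 0.821 FPKM in the WT group and 0.130 in the KD group, and *Ctsg*, the cathepsin G gene, had 0.452 FPKM in WT and was listed at 0 in KD. Both were named after their values were seen, and both have a mean from 0.2 to 0.5 FPKM, where 43.4% of all genes passed 1.5-fold. *S100a9* went the other way, from a listed 0 in WT to 0.229 FPKM in KD.

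Lymphoid and mast cell genes gave little signal. The highest of 9 T and NK cell genes was *Lck*, with 0.492 FPKM in WT against 0.946 in KD, and *Cd3e* and *Cd4* were listed at 0 in both groups. The 5 B cell genes summed to 0.725 FPKM for WT and 0.362 for KD. Of these, 3 were higher and 2, *Cd79b* and *Pax5*, lower in KD, and the median log2 difference was 0.16. Of 5 mast cell genes 3 were listed at 0 in both groups.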
